A study of Mus musculus with 6 samples.

Results

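The genes of the TCF1 and LEF1 transcription factors (Tcf7 and Lef1), of their partner beta-catenin (Ctnnb1) and of the Groucho corepressors (Tle1, Tle2, Tle3 and Tle4) were followed in CD4 T cells of the inflamed mouse colon. These 7 genes were taken by symbol from a count table of 55335 genes, and each had 1 row there. Of the 7, 6 passed the filter on low counts and were tested among 11074 genes, and Tle2 did not pass it.

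All cells came from donors of 1 kind. Splenic naive CD4 T cells of TcfGFP mice, which carry a green fluorescent reporter of Tcf7, were given to Rag1 KO recipients, whose own T and B cells are absent, and these developed colitis. CD4 T cells of the colon lamina propria were then sorted into a GFP- gate, which the labels call effector T cells (TCF7-), and a GFP+ gate, which the labels call stem-like T cells (TCF7+). Each gate had 3 libraries, 6 in all, whose values are given in the order of replicates 1 to 3, and both carry the same reporter, transfer and host. Ages, the time after transfer and whether replicates came from separate mice are not given in the labels, so the p-values reflect the spread among these libraries alone, and that spread may be technical.

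TCF1 and LEF1 are closely related DNA-binding proteins with an HMG box that recognises the same short motif. They activate or repress largely through the partners they bind. With beta-catenin bound to their N-terminal end they activate genes, and with a Groucho (TLE) protein bound they repress them. In T cells TCF1 is required early in thymic development and is later kept by naive, memory and stem-like cells and lowered in terminal effector cells, while LEF1 shares part of its role. Both genes also give shorter proteins that lack the beta-catenin-binding end, and the deposited counts per gene do not separate these forms.

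The gene models set what was counted. In GENCODE M21 on GRCm38, Tcf7 lies on the minus strand of chromosome 11 from 52252371 to 52283014, and Lef1 on the plus strand of chromosome 3 from 131110471 to 131224356. Ctnnb1 lies on chromosome 9 from 120929216 to 120960507 and Tle3 on the same chromosome from 61372366 to 61418497, both on the plus strand. Tle1 (chromosome 4, 72117142 to 72200919) and Tle4 (chromosome 19, 14448150 to 14598051) are on the minus strand, and Tle2 (chromosome 10, 81574561 to 81590845) is on the plus strand. The ratio of deposited count to TPM (an abundance divided by gene length and scaled to a fixed sum) gives relative lengths only. For Tle1, Tle3, Tle4, Lef1 and Ctnnb1 these were in the proportions of the exon lengths of M21, such as 8788 bases for Lef1. The M21 lengths of these same genes set the scale in each library. On that scale Tcf7 had 3019 bases, against 2625 in M21. The counted Tcf7 model was thus longer by a net 394 bases, and which bases differ is not known. RefSeq's span of Tcf7, 52246527 to 52283383, reaches further than M21's at both ends.

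RefSeq (GRCm38.p6) gave 13 windows of 250 bases before a start site for the 7 genes, some of which overlap. The motif of TCF and LEF proteins was searched in 4 spellings on both strands, namely CTTTGAA, its variant CTTTGAT, the variant CTTTGTA and lastly CTTTGTT. Of the 13 windows 1 held a match, where 14.8% of 32851 windows of the same length did. The match lay before a start site inside Lef1, 147 bases upstream of it, as CTTTGTA on the minus strand. The windows of the first and of this internal start site are shown because longer and shorter Lef1 transcripts are annotated from them, and because Lef1 separated the gates. The first window also covers part of an exon of an antisense gene, Lef1os1. Capitals mark the match, and both are written 5′ to 3′ on the plus strand.
Lef1 first start site (chr3:131110047-131110296): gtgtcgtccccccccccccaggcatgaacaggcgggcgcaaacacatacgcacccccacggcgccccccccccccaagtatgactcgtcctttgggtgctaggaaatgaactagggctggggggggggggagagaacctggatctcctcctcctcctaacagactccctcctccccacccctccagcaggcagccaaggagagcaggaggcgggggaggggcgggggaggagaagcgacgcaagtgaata
Lef1 internal start site (chr3:131156044-131156293): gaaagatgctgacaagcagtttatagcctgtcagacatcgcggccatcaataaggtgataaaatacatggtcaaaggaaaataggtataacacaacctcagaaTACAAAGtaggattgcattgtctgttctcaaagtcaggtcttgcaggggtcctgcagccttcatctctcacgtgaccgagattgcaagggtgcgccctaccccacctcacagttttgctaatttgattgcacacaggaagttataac
A match is a description of these letters only. The windows of Tcf7 are not shown, since RefSeq's own span of the gene covers them.

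Total counts ran from 4309500 to 7462076 per library, and 3 counts correspond to 0.43 to 0.69 CPM (the count relative to the library total after TMM scaling). The 8 T cell markers, Cd3d, Cd3e, Cd4 and Lck among them, were detected in all 6 libraries and held 0.653% to 0.722% of the counts in 5 of them and 0.506% in GFP-positive replicate 3. That library, the most deeply sequenced, stood apart in the myeloid, antigen-presenting, stromal and epithelial markers. The 10 myeloid markers, all detected there, held 0.659% of its counts against 0.0135% to 0.0187% in the other 5, and the 4 antigen-presenting cell markers 0.655% against 0.0180% to 0.0427%. The 6 stromal markers held 0.0361% against at most 0.00100%, the 8 epithelial markers 0.0367% against 0.00235% to 0.00706%, and the 4 natural killer markers 0.0752% against 0.00154% to 0.00777%. In the natural killer list the rise was that of Tyrobp and Fcer1g, at 487 and 302 CPM there against at most 35.2 and 26.4 CPM elsewhere. Ncr1 had 7.60 CPM there against 0 to 8.19 CPM, and Klrb1c had 8.61 CPM against 0 to 7.82 CPM. The 2 CD8 T cell markers were highest in GFP-negative replicate 1, at 0.0123% of the counts, and lowest in GFP-positive replicate 3, at 0.00131%. Of these, Cd8a had 113, 55.3 and 31.4 CPM in the GFP-negative libraries, against 46.1, 25.3 and 10.3 CPM in the GFP-positive libraries. The 5 B cell markers held at most 0.000186% of the counts in any library, and Ms4a1 and Pax5 among them were at 0 in all 6. The 4 endothelial markers held 0.00324% to 0.00810%, with 0.00610% in GFP-positive replicate 3. Pecam1, which leukocytes also express, had 165 to 455 counts per library, Kdr had 3 counts in all, and Cdh5 and Vwf were at 0.

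In the GFP-positive gate Tcf7 and Lef1 mRNA both stood higher, by 1.69-fold and 1.5-fold as ratios of mean CPM. Ctnnb1 stood 1.40-fold higher with overlapping gates, and Tle3, the most abundant Groucho gene, was at 0.933 of its GFP-negative level. Of the 6 tested genes 0 passed the quasi-likelihood test of edgeR with its p adjusted over all genes at 0.05, a threshold that 0.108% of the 11074 genes passed, 0.0361% as higher and 0.0722% as lower in the GFP-positive gate. At an unadjusted p under 0.05 there were 2, Tcf7 and Lef1, where 10.3% of all genes stood. DESeq2 called 1 of the 6, Lef1, where it called 1.82% of all genes it gave an adjusted p, and limma-voom called 0, where it called 0.0452% of all genes. Of the 6, 2 had CPM ranges that were higher in the GFP-positive gate without overlap, as did 7.25% of all genes, and 0 had ranges that were lower without overlap (8.8% of all genes). The log2 fold change was positive for 4 of the 6 and negative for 2, and its median was 0.41, against 0.02 over all tested genes. Tcf7, the gene of the sorting reporter, is among the 2 at an unadjusted p under 0.05, the 2 without overlap and the 4 positive. Its part in these counts and in the median is no independent result. In bulk RNA, fewer expressing cells and less RNA per cell cannot be told apart.

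Tcf7, which encodes TCF1 and is the gene of the sorting reporter, had 121, 140.5 and 71.3 CPM in the GFP-negative libraries, against 237, 183 and 140.8 CPM in the GFP-positive libraries. The lowest GFP-positive library, replicate 3, lay just above the highest GFP-negative one, and the GFP-negative gate kept a substantial level of the message. The log2 fold change was 0.75 ± 0.26 (SE), with a 95% interval from 1.12-fold to 2.54-fold, and edgeR gave an adjusted p of 0.367. Because the gate reads the same locus, this direction is no independent result. The separation also depended on the scaling. With CPM by library size the ranges overlapped, with 131.6 CPM in the lowest GFP-positive and 143.4 CPM in the highest GFP-negative library, and in the deposited TPM they overlapped too, at 119.7 and 139.4 TPM. Without GFP-positive replicate 3, whose myeloid markers were high, the log2 fold change was 0.94 (edgeR adjusted p = 0.111). It was 0.54 when GFP-positive replicate 1 was left out, 0.53 without GFP-negative replicate 3 and 0.96 with GFP-negative replicate 2 left out.

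Lef1, which encodes LEF1, showed a smaller and more even difference. It had 101.6, 100.1 and 116.2 CPM in the GFP-negative libraries, against 168, 146 and 161.5 CPM in the GFP-positive libraries. Every GFP-positive library lay above every GFP-negative library, and this held with TMM and RLE factors, with library size alone and in TPM. The log2 fold change was 0.58 ± 0.15 (SE; 95% interval 1.20-fold to 1.86-fold), and edgeR gave an adjusted p of 0.158. DESeq2 gave 0.59 with an adjusted p of 0.0397. Over 16 alternatives the log2 fold change stayed between 0.51 and 0.67, and the adjusted p ranged from 0.0397 to 0.534, so the direction held in each of them while the call did not.

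The Lef1 locus also carries Lef1os1 on the opposite strand (Gm43352 in M21), whose exons overlap those of Lef1 over 1208 bases. It was singled out after its values were seen. It had 7, 2 and 5 counts in the GFP-negative libraries, against 20, 14 and 21 counts in the GFP-positive libraries, with no overlap in CPM. Its log2 fold change was 1.70 ± 0.89 (SE; edgeR adjusted p = 0.567). The library procedure in the labels does not mark the strand. Hence reads of Lef1 and Lef1os1 over the shared bases cannot be told apart. Lef1os1 had few counts beside the 440 to 1126 of Lef1. Of all stretches of 50 bases in Lef1 transcripts, 13.7% also occur in transcripts of other genes, Lef1os1 included, which the counting could have split.

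**Figure D1:**
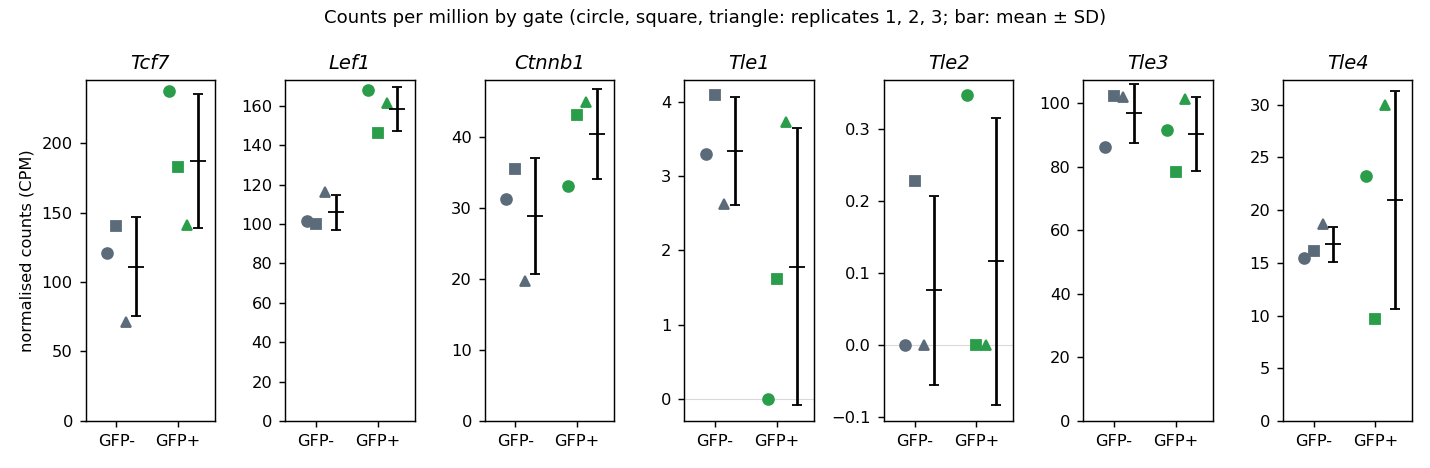
CPM (vertical axes, a scale per gene, starting at or just below 0) of each of the 7 genes in 3 GFP-negative and 3 GFP-positive libraries, with mean ± SD. Lef1 separates the gates by a clear gap, from 116.2 to 146 CPM, Tcf7 only just, and the other genes overlap.

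Ctnnb1 encodes beta-catenin, the coactivator that TCF1 and LEF1 bind and also a component of cell junctions. It had 31.2, 35.5 and 19.7 CPM in the GFP-negative libraries, against 33.1, 43.0 and 44.9 CPM in the GFP-positive libraries. GFP-positive replicate 1 lay below GFP-negative replicate 2, so the gates overlapped. The log2 fold change was 0.48 ± 0.27 (SE), and the 95% interval ran from 0.928-fold to 2.11-fold (edgeR adjusted p = 0.608). An increase to 2-fold and a small decrease both lie within that interval. The value rested partly on GFP-negative replicate 3, without which it was 0.29, and it was 0.41 without GFP-positive replicate 3. Exons of Ulk4 on the other strand overlap those of Ctnnb1 over 759 bases, and Ulk4 itself had 0 to 11 counts per library.

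Among the Groucho corepressors, Tle3 and Tle4 made up nearly all of the message. Tle3, a full-length corepressor widely expressed in lymphocytes, had 86.1, 102.1 and 102.0 CPM in the GFP-negative libraries, against 91.4, 78.2 and 101.1 CPM in the GFP-positive libraries. The gates lay on top of each other. The log2 fold change was -0.10 ± 0.17 (SE), with a 95% interval from 0.725-fold to 1.20-fold and an edgeR adjusted p of 0.890, so a difference of 2-fold in either direction lies outside the interval. Of the 6 tested genes Tle3 had the narrowest interval after Lef1.

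Tle4, a corepressor also known from B cell and T cell development, had 15.5, 16.1 and 18.6 CPM in the GFP-negative libraries, against 23.2, 9.66 and 30.0 CPM in the GFP-positive libraries. The GFP-negative libraries agreed closely, while the GFP-positive ones held both the lowest and the highest value of the 6. The log2 fold change was 0.33 ± 0.40 (SE; 95% interval 0.691-fold to 2.28-fold; edgeR adjusted p = 0.841). The highest value was that of GFP-positive replicate 3, in which myeloid markers held 0.659% of counts, and without it the log2 fold change was -0.01. Without GFP-positive replicate 2, the lowest, it was 0.68. What part the myeloid transcripts have in the Tle4 value was not tested.

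Tle1 was scarce, at 3.30, 4.09 and 2.63 CPM in the GFP-negative libraries, against 0, 1.61 and 3.73 CPM in the GFP-positive libraries. The 0 counts in GFP-positive replicate 1 allow up to 0.520 CPM, by counting error alone. Its log2 fold change, -0.88 ± 1.07 (SE) with edgeR's adjusted p at 0.842, had an interval from 0.109-fold to 2.71-fold, which holds both a large decrease and a large increase. The GFP-positive libraries had 0, 7 and 26 counts of it. Leaving out GFP-positive replicate 3 gave -2.08, and leaving out GFP-positive replicate 1 gave -0.30. Tle2 had 3 counts in the 6 libraries together, 1 in GFP-negative replicate 2 and 2 in GFP-positive replicate 1, and no comparison was made.

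**Figure D2:**
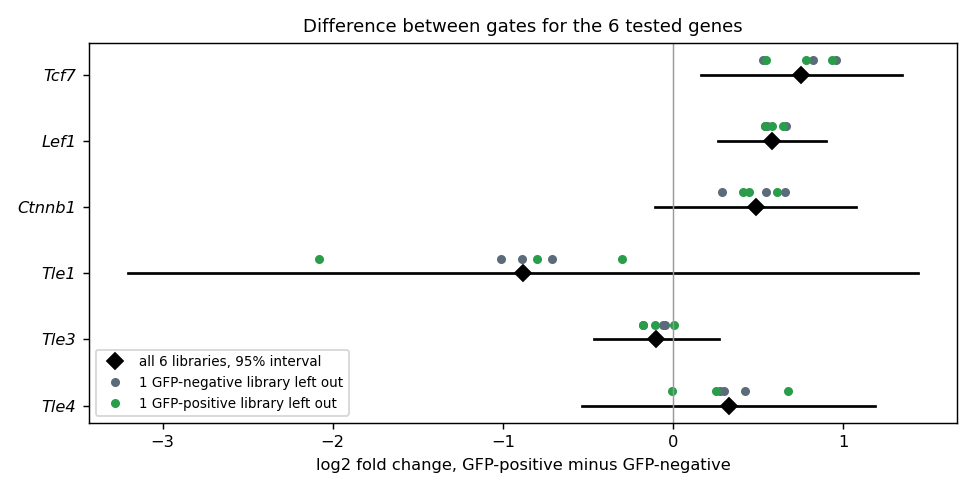
Log2 fold change, GFP-positive minus GFP-negative (horizontal axis), of the 6 tested genes: diamonds with 95% intervals use all 6 libraries and dots leave out 1 library each. The intervals of Tcf7 and Lef1 lie above 0 before adjustment, that of Tle3 is narrow around 0, that of Tle1 spans both directions, and a Tle4 dot falls to -0.01 when GFP-positive replicate 3 is left out.

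Levels between genes can be compared only per length, in the deposited TPM, which divide by all annotated exon bases of a gene. The order below thus depends on those lengths, such as 3019 bases for Tcf7 and 8788 for Lef1. In counts, Lef1 stood above Tcf7 in GFP-negative replicate 3 (530 against 325) and in GFP-positive replicate 3 (1126 against 982). Elsewhere it stood below Tcf7. Tle3 stood above Lef1 in counts in GFP-negative replicate 2 alone (449 against 440). Tcf7 led with 175 ± 58.2 TPM in GFP-positive and 107.6 ± 36.7 TPM in GFP-negative libraries (SD, n = 3 each). Lef1 followed with 50.4 ± 5.93 and 35.1 ± 2.39 TPM. Tcf7 exceeded Lef1 in 6 of 6 libraries, by 1.78-fold to 4.12-fold, and Lef1 exceeded Tle3 and Ctnnb1 in 6 of 6. Tle3 (21.5 ± 2.40 and 24.2 ± 2.56 TPM) and Ctnnb1 (21.5 ± 2.17 and 16.2 ± 4.89 TPM) were neighbours whose order was not fixed, Tle3 being higher in 5 of 6. Tle4 (10.1 ± 4.71 and 8.56 ± 0.751 TPM) lay below both in 6 of 6, and above Tle1 (0.539 ± 0.549 and 1.12 ± 0.273 TPM). Among 54957 genes, Tcf7 ranked 668 to 1179 in GFP-positive and 1148 to 2195 in GFP-negative libraries, and Lef1 ranked 2564 to 2911 and 3491 to 3863.

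Within the TCF and LEF family the shares of the gates overlapped. Tcf7 made up 77.5%, 80.3% and 64.0% of the summed TPM of Tcf7, Lef1, Tcf7l1 and Tcf7l2 in the GFP-negative libraries, against 80.5%, 78.5% and 70.1% in the GFP-positive libraries. The lowest share in each gate was that of replicate 3. The log2 ratio of Tcf7 to Lef1 was 1.55 ± 0.63 in GFP-negative and 1.75 ± 0.36 in GFP-positive libraries (SD, n = 3 each), with a two-sided p of 0.6 in an exact permutation test. The sign of that difference turned, from 0.20 to -0.16, without GFP-negative replicate 3. Of the relatives, Tcf7l1 had 4 counts and Tcf7l2 82 counts in GFP-positive replicate 3, where Tcf7l2 reached 2.01% of the family's TPM. In the other 5 libraries Tcf7l1 was at 0 and Tcf7l2 had 5, 0, 2, 0 and 0 counts, so their signal was highest in the library with the highest myeloid and stromal markers, whose part in it was not tested.

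**Figure D3:**
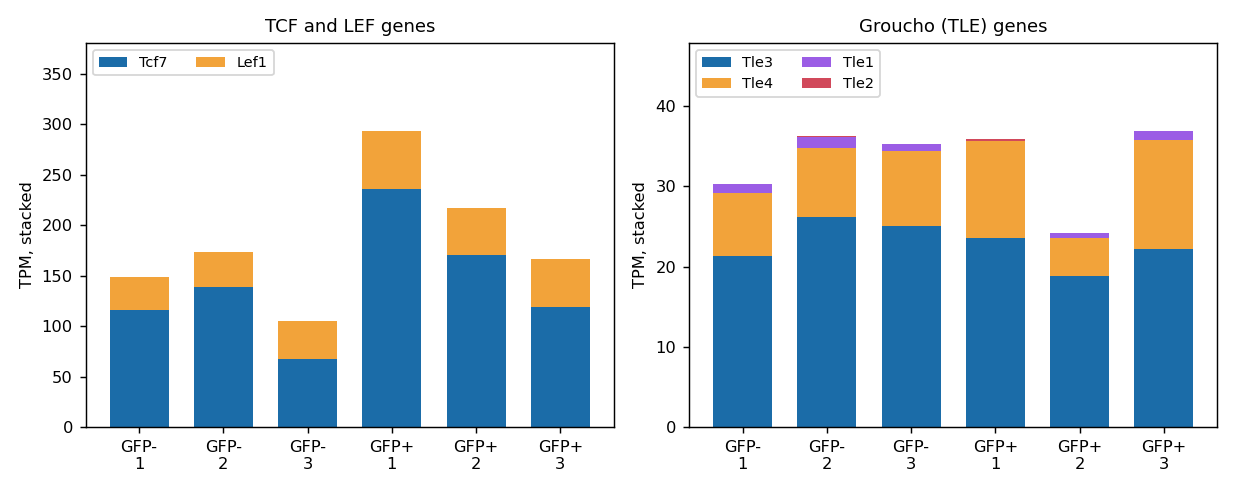
Deposited TPM (vertical axes, from 0) of Tcf7 and Lef1 (left) and of Tle3, Tle4, Tle1 and Tle2 (right), stacked by library. Tcf7 and Lef1 together reach their highest sum in GFP-positive replicate 1, whereas the Groucho sum is of like height in the gates and lowest in GFP-positive replicate 2.

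The balance of DNA-binding factors to corepressors was set by summing TPM within a library, which needs no scaling between libraries. The size of each ratio depends on the annotated exon lengths that TPM divide by. Tcf7 plus Lef1 stood at 4.93, 4.79 and 2.99 times the sum of Tle1 to Tle4 in GFP-negative replicates 1 to 3. The ratio was 8.16, 9.0 and 4.53 in GFP-positive replicates 1 to 3. Replicate 3 was lowest in both gates, and that of the GFP-positive gate fell among the GFP-negative values. On the log2 scale the means were 2.05 ± 0.41 and 2.79 ± 0.54 (SD, n = 3 each), a difference of 0.75 with a two-sided exact permutation p of 0.3. Tcf7, the gene of the sorting reporter, held most of the sum of Tcf7 plus Lef1 in each library. The direction of this difference is therefore no independent result. The difference was 1.05 without GFP-positive replicate 3 and 0.51 without GFP-negative replicate 3. With deposited counts in place of TPM it was 0.73. The summed Groucho TPM was 33.9 ± 3.20 in GFP-negative and 32.3 ± 7.07 in GFP-positive libraries. Within it Tle3 held 70.4%, 72.4% and 71.0% in the GFP-negative libraries, against 65.5%, 78.1% and 60.4% in the GFP-positive libraries. The log2 ratio of Tle3 to Tle4 was 1.497 ± 0.115 and 1.22 ± 0.67 (two-sided p of 0.5 in an exact permutation test, n = 3 each). The 3 ratio tests had adjusted p-values of 0.6 each, and 3 against 3 libraries cannot give a p below 0.1 in an exact permutation test. The GFP-negative values of Tle3 to Tle4 were tight and the GFP-positive ones were not, with 1.65-fold in replicate 3 and 3.96-fold in replicate 2.

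Genes whose profile over the 6 libraries was nearest to that of Tcf7 were Fosl2, Gm26740, Prkdc, AW011738 and Cbr1. Likeness was the root mean square difference of log2 CPM after centring each gene, over 6599 genes with a mean of at least 20 CPM. Fosl2, an AP-1 family member, differed by 0.13, where the profile of Tcf7 itself varied by 0.53, and the fifth, Cbr1, by 0.18. Fosl2 had 212, 207 and 107 CPM in the GFP-negative libraries, against 318, 293 and 234 CPM in the GFP-positive libraries. Like Tcf7 it was lowest in replicate 3 of each gate. Nearest to Lef1 were Saysd1, Ssh2, Trmt1, Exosc1 and Atp13a1, at 0.06 to 0.10 where Lef1 itself varied by 0.30. Ssh2, a phosphatase that acts on cofilin, had 273, 265 and 311 CPM in the GFP-negative libraries, against 470, 465 and 451 CPM in the GFP-positive libraries, with an edgeR adjusted p of 0.0807. Tcf7 and Lef1 were 0.43 apart, farther than either was from Ctnnb1 (0.37 each), and Lef1 was nearer still to Tle3 (0.36). These distances from Lef1 all exceed the 0.30 by which Lef1 itself varied, so none of them shows likeness to it. These are descriptions over 6 libraries that share the gates.

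Around these genes the wider pathway was weakly and unevenly represented. Over all pathway lists, 98 genes were found and 50 were tested, 26 with a positive and 24 with a negative log2 fold change, and edgeR called 1, Id3. At an unadjusted p under 0.05 there were 5 in each direction, and 10.3% of all tested genes stood there. The count of calls was 6 with DESeq2 (1.82% of all genes) and 0 with limma-voom (0.0452% of all genes).

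Tle5, a short Groucho relative (formerly Aes) that lacks the repeat domain of Tle1 to Tle4, was the only tested gene of the other Groucho genes, Tle6 and Tle7 being at 0 counts in every library. It had 138, 151 and 225 CPM in the GFP-negative libraries, against 71.4, 110.4 and 159 CPM in the GFP-positive libraries, with overlap. Replicate 3 was the highest in each gate. Its log2 fold change was -0.59 ± 0.30 (SE; edgeR adjusted p = 0.582), and -0.90 without GFP-positive replicate 3 (adjusted p = 0.136).

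The corepressor partner list, which holds histone deacetylases and CtBP corepressors, had negative log2 fold changes in 3 of 3 tested cases. Of these 0 were called by edgeR and 2 stood at an unadjusted p under 0.05, with a median of -0.50. Over all tested genes 10.3% stood at an unadjusted p under 0.05, and 8.8% were lower without overlap. Ctbp1, a corepressor of the CtBP family, had 132, 176 and 148 CPM in the GFP-negative libraries, against 51.3, 95.9 and 92.1 CPM in the GFP-positive libraries. The gates did not overlap. Its log2 fold change was -0.93 ± 0.22 (SE; edgeR adjusted p = 0.151), and DESeq2 called it (adjusted p = 0.0142). The histone deacetylase genes Hdac1 and Hdac2 had log2 fold changes of -0.50 ± 0.15 and -0.30 ± 0.23 (edgeR adjusted p = 0.251 and 0.718). Hdac1 did not overlap between the gates, with 225 to 262 CPM in GFP-negative and 141 to 186 CPM in GFP-positive libraries. Ctbp2 had 26 counts in GFP-positive replicate 3 and 0 to 4 in the others.

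Of the coactivators that work with beta-catenin, 4 of 5 tested genes had a positive log2 fold change and 0 were called by edgeR or stood at an unadjusted p under 0.05. Crebbp and Ep300, 2 histone acetyltransferases, had log2 fold changes of 0.42 ± 0.20 and 0.40 ± 0.23 (SE; edgeR adjusted p = 0.512 and 0.608). Crebbp had 43.2 to 53.7 CPM in GFP-negative and 58.9 to 69.7 CPM in GFP-positive libraries. Bcl9, which links beta-catenin to Pygopus, stood at 1.48 CPM in GFP-negative and 3.45 CPM in GFP-positive libraries on average. This rests on few counts, 10, 10 and 1 in the GFP-negative against 23, 14 and 22 in the GFP-positive libraries. Its CPM ranges did not overlap, as in 7.25% of all tested genes that were higher (log2 fold change 1.21 ± 0.92 SE; edgeR adjusted p = 0.718). Pygo2 went the other way, at -0.37 ± 0.21 (edgeR adjusted p = 0.617). The antagonists Cby1 and Ctnnbip1, which keep beta-catenin from TCF proteins, had 0.42 ± 0.43 and -0.29 ± 0.43 (edgeR adjusted p = 0.798 and 0.871).

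The destruction complex, which marks beta-catenin for degradation, was split evenly. Of 11 tested genes 5 were positive and 6 negative, with a median of -0.06, and 0 were called by edgeR or stood at an unadjusted p under 0.05. The scaffold Axin1 had the smallest p, at -0.66 ± 0.36 on the log2 scale (SE; edgeR adjusted p = 0.591). Tnks2, Gsk3a and Btrc had -0.28 ± 0.20, -0.54 ± 0.42 and 0.39 ± 0.31 (edgeR adjusted p = 0.711, 0.724 and 0.729). Of 6 tested receptor and Dishevelled genes 4 were positive, 0 were called and 0 stood at an unadjusted p under 0.05. The co-receptor Lrp6 had 12.0, 11.6 and 22.6 CPM in the GFP-negative libraries, against 9.35, 11.5 and 5.74 CPM in the GFP-positive libraries, without overlap by a narrow margin (edgeR adjusted p = 0.601). Dvl1, Dvl3 and Dvl2, which relay the receptor signal, had log2 fold changes of 0.58 ± 0.51, 0.56 ± 0.52 and 0.38 ± 0.36 (edgeR adjusted p = 0.763, 0.779 and 0.785). Of the ligand list Wls alone was tested, the carrier that Wnt-secreting cells need, at -0.89 ± 0.41 (edgeR adjusted p = 0.482; unadjusted p = 0.0490).

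Common Wnt target genes were positive in 4 of 4 tested cases, with a median of 0.28, and 0 were called by edgeR. Myc, a driver of growth, stood at an unadjusted p under 0.05, as did 10.3% of all tested genes. It had 80.2, 83.2 and 96.0 CPM in the GFP-negative libraries, against 109.8, 124 and 127 CPM in the GFP-positive libraries, without overlap (log2 fold change 0.48 ± 0.16 SE; edgeR adjusted p = 0.294). Axin2, the target most often used as a readout of beta-catenin activity, had 17.1, 10.5 and 14.3 CPM against 10.04, 19.5 and 14.6 CPM. Its log2 fold change was 0.08 ± 0.39 (edgeR adjusted p = 0.975). Rnf43, a membrane ubiquitin ligase that removes Wnt receptors, stood at 0.00 ± 0.24 (edgeR adjusted p = 0.997) and its relative Znrf3 at 0.80 ± 0.38 (edgeR adjusted p = 0.495).

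Genes known to accompany TCF1 in T cells were spread more widely. Of 10 tested genes known as high where TCF1 is high, 8 were positive with a median of 0.79. EdgeR called 1, Id3, at 2.27 ± 0.35 (SE; adjusted p = 0.0285), and 4, Id3 included, stood at an unadjusted p under 0.05. Over all tested genes edgeR called 0.108%, 10.3% stood at an unadjusted p under 0.05, and 7.25% were higher without overlap. Leaving out GFP-negative replicate 1, 2 or 3 brought the adjusted p of Id3 to 0.0755, 0.0845 and 0.0587, and leaving out GFP-positive replicate 1 brought it to 0.0874. The call of Id3 was thus lost in 4 of 6 such fits, while its log2 fold change stayed between 2.00 and 2.52. Slamf6 (2.32 ± 0.44; edgeR adjusted p = 0.118) and Il7r (0.79 ± 0.15; edgeR adjusted p = 0.102) had groups that did not overlap, while those of Ccr7 did (1.01 ± 0.33; edgeR adjusted p = 0.290; 0.65 without GFP-positive replicate 3). DESeq2 called Id3, Slamf6 (adjusted p = 2.85e-07) and Il7r (adjusted p = 3.28e-05). EdgeR called Slamf6 when GFP-positive replicate 3 (adjusted p = 0.0416) or GFP-negative replicate 2 (adjusted p = 0.00499) was left out. Of 8 tested genes known as low where TCF1 is high, 7 were negative with a median of -0.41, 0 were called by edgeR and 2 stood at an unadjusted p under 0.05. Those 2 were Klrg1 (-1.50 ± 0.35; edgeR adjusted p = 0.127) and Prdm1 (-0.65 ± 0.17; edgeR adjusted p = 0.158), both without overlap, where 8.8% of all tested genes were lower without overlap. DESeq2 called both, with adjusted p-values of 0.00831 and 0.0420, and edgeR called Klrg1 without GFP-negative replicate 3 (adjusted p = 0.0437). Gzmb and Havcr2 had -1.03 ± 0.45 and -1.95 ± 1.05 (edgeR adjusted p = 0.534 and 0.638), and Havcr2 stood at 31.0 CPM in GFP-positive replicate 3 against 4.68 and 2.30 CPM in replicates 1 and 2. Without GFP-positive replicate 3 the log2 fold change of Havcr2 was -3.79 (edgeR adjusted p = 0.00661), in a fit that called 50 of 11074 genes, against 12 in the main test. The count of 0 calls in this list thus depends on that library and, through Klrg1, on GFP-negative replicate 3. The genes named here had the smallest p-values of each list. The 2 negative genes of the first list and the 1 positive gene of the second are not among them. Earlier results of these data were known when these lists were drawn up, so their direction is no independent evidence.

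**Figure D4:**
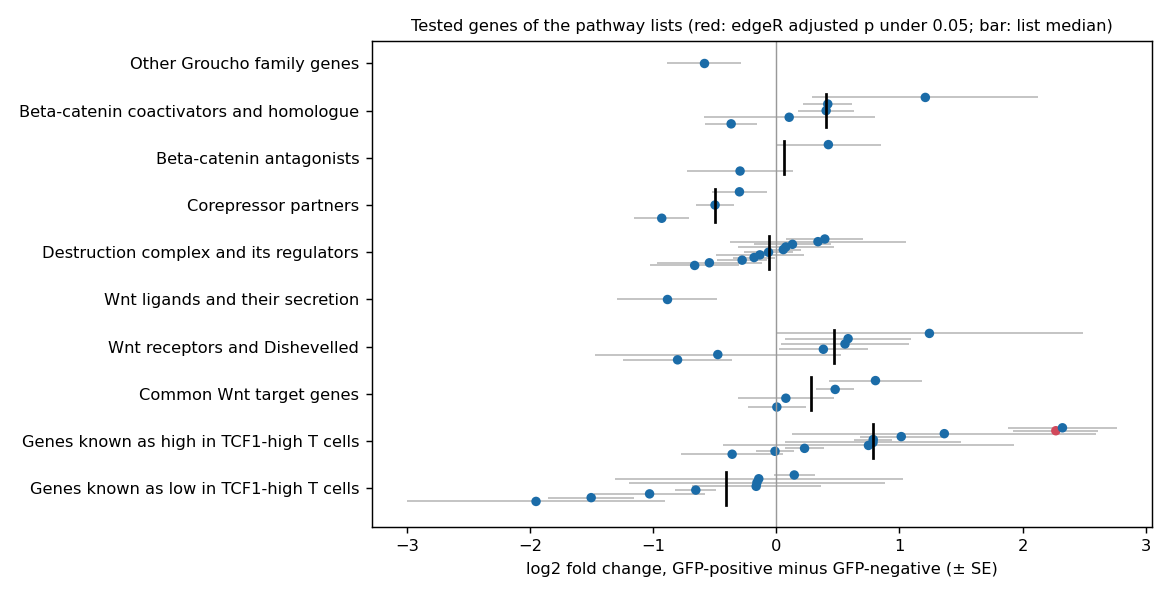
Log2 fold change, GFP-positive minus GFP-negative (horizontal axis, ± SE), of the tested genes of each pathway list, with the list median as a bar. Id3, in red, is the 1 gene past an adjusted p of 0.05, the destruction complex is spread evenly around 0, and all 3 corepressor partners lie below it.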

How the data were processed

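RNA-seq was read in 6 libraries of sorted cells. The authors deposited raw counts per gene and TPM. The build was mm10 and the tools included STAR 2.7.10b, fastp 0.23.3, deepTools 3.5.1 and SAMtools 1.17, per the submitters' processing notes. The read counter is not given in the sources used here, nor is the annotation. TPM lack 378 genes of the count table, which held 3.65% to 7.82% of the counts. Per the labels' protocols, cDNA was amplified by PCR with no strand marking or molecular identifiers, so limits from counts cover counting error only.

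Counts were tested with the quasi-likelihood test of edgeR 4.0.16 (R 4.3.3; default filter with minimum count 10, TMM factors, robust, group as the only term) with Benjamini-Hochberg adjustment over 11074 genes at 0.05. The 95% intervals are unadjusted and come from the SE. Ratios of TPM used exact permutation tests. Alternatives were RLE factors, library size alone, other filters, DESeq2 1.42.0, limma-voom (limma 3.58.1), limma on TPM (log2 after adding 1 or 0.1, for genes averaging 1 TPM or more), a replicate block, and leaving out each library. The tests were tested on simulated data. No 2 replicates were duplicates (chi-square per degree of freedom 11.1 or more). Identifiers of 6 of 7 genes matched GENCODE M21 with their version, and Tcf7 without it.

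Members and lists were chosen with earlier results of these data known. Named genes are the 7 members, up to 4 tested genes of each list with the smallest p, and the 5 nearest profiles to Tcf7 and to Lef1. Genes outside this rule (Lef1os1, Ulk4, Tcf7l1, Tcf7l2, Tle6, Tle7, Ctbp2, Jup, Wnt3, Fzd1 and the cell markers) are given for their counts or levels and were named after their values were seen. Pathway lists covered TCF relatives, other Groucho genes, beta-catenin coactivators, beta-catenin antagonists, corepressor partners, the destruction complex, Wnt ligands, Wnt receptors, Wnt targets and genes high or low with TCF1.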

Additional observations from a re-analysis of the deposited data

How the results depend on the processing

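The directions of Tcf7, Lef1 and Ctnnb1 held in each of 16 alternatives. Tle3 ranged from -0.176 to 0.0036 on the log2 scale with 1 library left out, turning from -0.10 to 0.0036 without GFP-positive replicate 2. Tle4 ranged from -0.0079 to 0.675, turning from 0.33 to -0.0079 without GFP-positive replicate 3. Tle1 stayed negative in the 14 alternatives that gave a value. The number of the 7 genes called was 0 in the main test, which called 0.108% of all genes, and 0 in every fit that left out 1 library. It was 1 with DESeq2 (Lef1, adjusted p = 0.0397), which called 1.82% of the genes it gave an adjusted p. With no filter it was also 1, Tcf7, the gene of the sorting reporter (edgeR adjusted p = 0.00314), in a fit that called 373 of 20982 genes. The cause of these changes between settings was not tested. Over all genes 12 were called, and 19 with library size alone, 373 with no filter, 200 with DESeq2, 5 with limma-voom, 1 with limma on log2(TPM + 1), 0 with limma on log2(TPM + 0.1), and 0 to 50 with 1 library left out; the unadjusted p was under 0.05 for 1138 genes in the main test and 1156 on log2(TPM + 0.1). Among pathway genes 1 was called, and 7 with no filter, 6 with DESeq2, 0 with limma-voom and with limma on either TPM scale, and 0 to 3 with 1 library left out: Slamf6 without GFP-negative replicate 2, Klrg1 without GFP-negative replicate 3, Id3 without GFP-positive replicate 2, and Havcr2, Id3 and Slamf6 without GFP-positive replicate 3. Leaving out GFP-positive replicate 1 gave 0 calls (1077 genes at an unadjusted p under 0.05) and leaving out GFP-positive replicate 3 gave 50. With the tested genes of the TPM table only, an alternative added after seeing the data, 14 genes were called and none of the 7. Leaving out 1 library moved the log2 ratio of Tcf7 plus Lef1 to Tle1 to Tle4 between 0.51 and 1.05, that of Tcf7 to Lef1 between -0.16 and 0.43 and that of Tle3 to Tle4 between -0.66 and -0.03.

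The labels do not say that replicate numbers pair the libraries, so the numbers were not taken as pairs. Same-numbered libraries of the gates deviated together weakly (r = 0.104, 0.097 and 0.104 across genes), which does not settle whether they are pairs. Each library correlated best with its own number in the other gate, a hint from the data only. With a replicate block 81 genes and 5 pathway genes (Ctbp1, Gzmb, Id3, Il7r and Slamf6) were called and 0 of the 7, with Tcf7 at an adjusted p of 0.0519 and Lef1 at 0.0931. Counts were lowest for Tle2, with 3 in all, and Tle1, with 0 to 26 per library.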

Other observations

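Most Wnt ligand and receptor genes were at or near 0 in these T cells. Of the 48 pathway genes that did not pass the filter, 23 were at 0 counts in every library, 12 of them ligands or secretion genes and 4 of them receptors. Of the other 25, 14 had their highest CPM in the library GFP-positive replicate 3, where myeloid, stromal and epithelial markers were high. That library was also the most deeply sequenced, with 17119 genes detected against 14538 to 15346 in the others. The share of all genes below the filter that were highest there was not determined, so the 14 are no trait of the pathway. Jup, which encodes the beta-catenin relative plakoglobin, had 83 counts there and 3, 0, 9, 8 and 0 in the others. Wnt3 had 23 counts there and Fzd1 had 18, and each was at 0 in the other 5 libraries. These genes were singled out after their values were seen, and no test was made of them.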
